A study of Mus musculus with 6 samples.

Results

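Imprinted genes are transcribed mainly from the copy inherited from 1 parent, and a group of them that controls growth was examined in long-term haematopoietic stem cells (LT-HSCs) of mouse bone marrow, the rare cells that sustain blood formation. The 10 genes were chosen by symbol from a count table of 49997 genes: H19, Igf2, Meg3, Rian, Mirg, Dlk1, Ndn, Peg3, Grb10 and Plagl1. LT-HSCs of 4-month-old C57BL/6J mice were sorted by flow cytometry into a population with high Asrij and a population with low Asrij, and each was sequenced in 3 libraries. Asrij is the protein of Ociad1, an endosomal and mitochondrial OCIA domain protein. The labels give the strain under genotype for both groups, name no other allele or treatment, and do not say how Asrij was read in the sort. The name of the deposited count table carries the term ArjKI, which the labels do not explain, so both groups may share an allele that is not described. Nor do they tie the 3 libraries of a group to different mice, so the p-values rest on the variation among these samples, which can be technical.

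Imprinting rests on DNA methylation that is laid down in egg or sperm and kept through later divisions at imprinting control regions. Paternally expressed genes of this group mostly promote growth, as does the growth factor gene Igf2, and several maternally expressed ones restrain it, as does the adaptor gene Grb10. In mouse bone marrow several of these genes are known as transcripts enriched in quiescent LT-HSCs, and they are also known from embryonic and mesenchymal cells. The counts are not separated by allele, so none of the values below shows which parental copy was transcribed.

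The Asrij high libraries held 62732782 to 72855125 counts and the Asrij low libraries 24707012 to 46240743. Levels are given as CPM, counts scaled to library size with TMM factors. Ociad1 had 86.9, 77.6 and 76.3 CPM in Asrij high replicates 1 to 3 against 57.9, 50.3 and 46.7 CPM in Asrij low replicates 1 to 3 (log2 0.64 ± 0.16, SE, adjusted p = 0.0115 in edgeR's quasi-likelihood test, and from 0.00559 to 0.133 over alternative settings). Low counts were mostly even: of counts from 5 to 20, 68.5% to 73.0% were even in Asrij high libraries and 77.6% to 81.1% in Asrij low libraries, against 49.3% to 50.4% of counts over 100. Of the 35 counts from 1 to 100 among the 10 imprinted genes, 29 were even. The labels do not say whether reads or fragments were counted. If both mates of a fragment were counted, the counts and the floors of 3 counts stand for fewer fragments than printed, and the part of this in the results was not tested beyond the fit on counts divided by 2. Of the 18 LT-HSC markers all had counts in every library, and their summed level was 777, 1640 and 852 CPM in Asrij high replicates 1 to 3 and 3090, 3580 and 2710 CPM in Asrij low replicates 1 to 3. Of these markers 15 were lower in Asrij high and 0 higher, where 17.7% of all genes tested were lower and 21.7% higher. Among the 15 were Procr, the protein C receptor gene used to sort LT-HSCs (log2 fold change -3.08 ± 0.45), and the transcription factor genes Erg (-2.04 ± 0.27) and Prdm16 (-2.32 ± 0.33). In bulk libraries fewer cells of a type and less RNA per cell cannot be told apart.

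The upstream sequences of the 3 members that passed the test (Meg3, Igf2 and Ndn) and of Grb10, the most abundant member, are shown to set the letters that carry methylation beside the expression results. They are the 250 bases before an annotated start, from RefSeq on GRCm38.p6, 5′ to 3′ on the gene's strand, with each CG dinucleotide in capitals. Where a gene has several starts the one with most CG is shown, and the counts do not say which start was used. The windows are chr12:109540746-109540995 (+) for Meg3, chr7:142658805-142659054 (-) for Igf2, chr7:62348027-62348276 (+) for Ndn and chr11:12037421-12037670 (-) for Grb10.
Meg3: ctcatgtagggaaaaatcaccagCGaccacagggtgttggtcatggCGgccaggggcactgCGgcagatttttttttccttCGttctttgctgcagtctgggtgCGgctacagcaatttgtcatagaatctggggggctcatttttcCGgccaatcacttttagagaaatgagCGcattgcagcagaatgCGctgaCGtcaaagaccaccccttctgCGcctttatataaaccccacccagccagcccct
Igf2: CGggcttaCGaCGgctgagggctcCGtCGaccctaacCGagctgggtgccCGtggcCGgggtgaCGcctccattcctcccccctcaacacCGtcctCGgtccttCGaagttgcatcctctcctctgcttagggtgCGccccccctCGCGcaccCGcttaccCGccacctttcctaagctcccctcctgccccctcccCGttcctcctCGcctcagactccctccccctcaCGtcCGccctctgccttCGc
Ndn: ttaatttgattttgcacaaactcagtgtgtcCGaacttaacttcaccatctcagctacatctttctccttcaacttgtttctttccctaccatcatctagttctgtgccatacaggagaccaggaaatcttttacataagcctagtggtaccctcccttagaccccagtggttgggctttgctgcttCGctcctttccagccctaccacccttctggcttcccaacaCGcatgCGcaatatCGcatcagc
Grb10: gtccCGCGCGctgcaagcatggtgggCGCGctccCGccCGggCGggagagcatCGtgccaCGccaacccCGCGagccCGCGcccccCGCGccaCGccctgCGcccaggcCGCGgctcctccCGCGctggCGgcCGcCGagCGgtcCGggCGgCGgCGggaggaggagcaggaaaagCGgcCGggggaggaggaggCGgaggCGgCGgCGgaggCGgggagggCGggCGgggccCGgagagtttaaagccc

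The Grb10 window held 40 CG, the Igf2 window 22, the Meg3 window 10 and the Ndn window 5, where the median of all 32851 such windows was 6 (quartiles 2 and 16). These are the highest of each gene's windows: the other Igf2 windows held 10, 6 and 1 CG, the other Grb10 window 8 and the other Meg3 window 0. RefSeq windows matched 9 of the 10 genes. The letters TGCCGC, the core of the methylated motif bound by the imprint-keeping zinc finger protein ZFP57, were searched on both strands and stood in the Meg3 window (from base 61, on the opposite strand) and in that of Plagl1 (from base 161). They stood in 8.68% of all windows. The palindrome GGGGCCCC, bound by the PLAGL1 protein, stood in the Peg3 window, and in 0.889% of all windows. The letters AANATGGC, of the factor YY1, stood in no member's window and in 3.91% of all windows. These matches describe letters only.

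Several members also carry microRNAs within their transcripts, shown with the seed (bases 2 to 8) in capitals because the host RNAs are what was counted here. The sequences are from RefSeq on GRCm38.p6. By the exons of any transcript annotated in GENCODE M21, Mir675 lies in an exon of H19 and Mir770 in an exon of Meg3. Mir483 lies in no exon of Igf2 but within its span. An exon of some transcripts can be an intron of others. The 6 mature forms have 6 different seeds.
mmu-miR-675-5p: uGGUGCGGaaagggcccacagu
mmu-miR-675-3p: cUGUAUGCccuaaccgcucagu
mmu-miR-770-5p: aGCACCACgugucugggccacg
mmu-miR-770-3p: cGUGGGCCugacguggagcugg
mmu-miR-483-5p: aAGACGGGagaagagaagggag
mmu-miR-483-3p: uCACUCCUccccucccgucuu

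The table has 55 rows for microRNA genes of the Dlk1-Meg3 and H19-Igf2 regions, of which 9 had any count, with 9 counts in all over the Asrij high libraries and 35 over the Asrij low libraries. Mature microRNAs were therefore not measured here, and the hosts stand for their own RNA only.

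Igf2, Meg3 and Ndn were lower in Asrij high LT-HSCs, the groups of Grb10 overlapped, and no member rose. Of the 10 genes, 9 passed the filter on low counts, and 3 of these were lower and 0 higher at an adjusted p under 0.05 (edgeR quasi-likelihood test, Benjamini-Hochberg adjusted over all 21445 genes tested). Among all genes tested 39.4% passed, 17.7% lower and 21.7% higher. With library totals or upper quartile factors in place of TMM, 40.2% and 39.9% of the genes that passed were higher, against 55.1%. The median log2 fold change (Asrij high over Asrij low) of the 9 genes was -2.35, and that of all genes -0.02. For 4 of the 9 all Asrij high libraries lay below all Asrij low libraries, as did 24.8% of all genes, and for 0 of the 9 they lay above, as did 30.2% of all genes. A gene of low level passed the filter through the group in which it was higher, so the count and the median of the 9 describe only those genes.

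**Figure D1:**
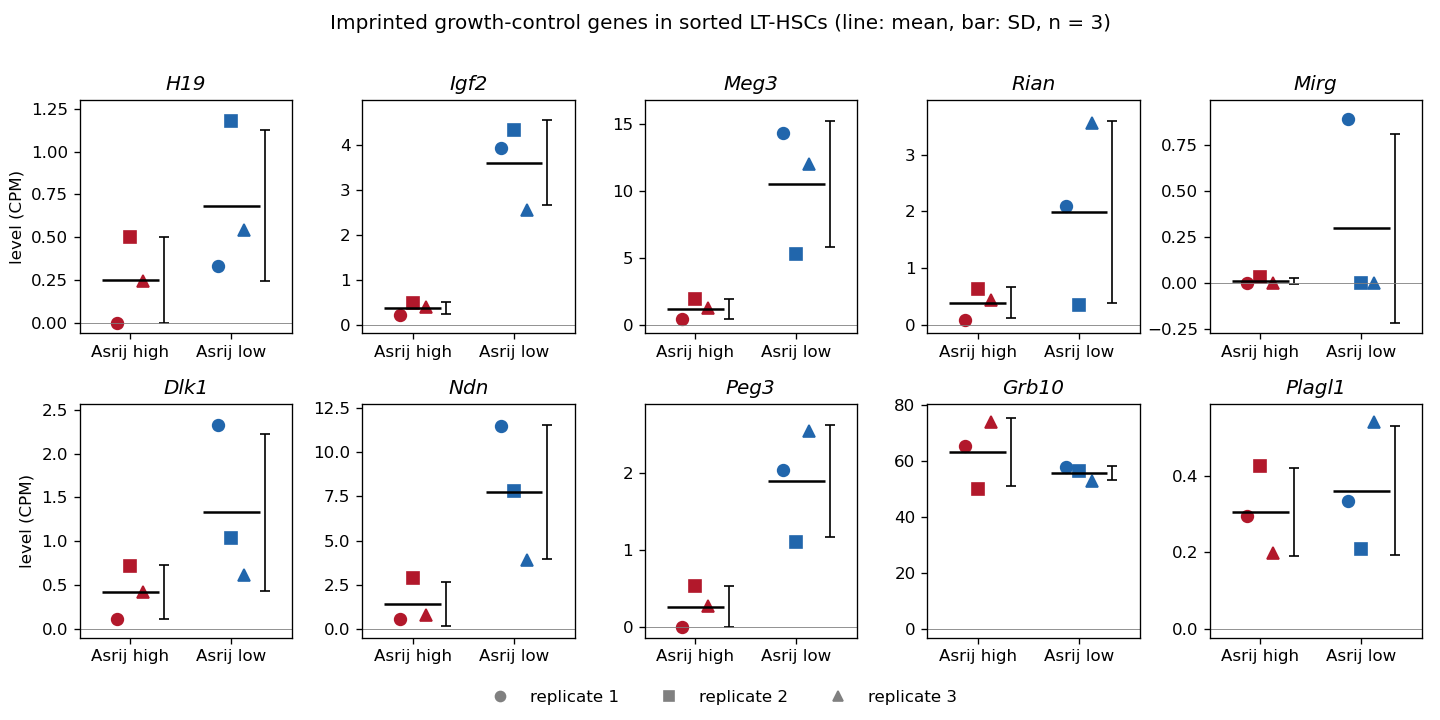
Levels (CPM, linear axes that include 0) of the 10 imprinted genes in each library, Asrij high on the left and Asrij low on the right of each panel, with the mean (line) and SD (bar, n = 3). Igf2, Meg3, Ndn and Peg3 show no overlap between groups, whereas the groups of Grb10 and Plagl1 overlap, as do those of H19, Rian, Dlk1 and Mirg.

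The growth factor ligand of the group is Igf2 (chromosome 7, 142650768 to 142666816), a paternally expressed gene for insulin-like growth factor 2. It had 0.220, 0.487 and 0.394 CPM in Asrij high replicates 1 to 3, from 12, 31 and 26 counts, against 3.94, 4.33 and 2.55 CPM in Asrij low replicates 1 to 3, from 213, 125 and 66 counts. The groups were far apart, with the lowest Asrij low library well above the highest Asrij high library. The log2 fold change was -3.28 ± 0.56 (SE, adjusted p = 0.00209, edgeR), so Igf2 was 9.74-fold lower in Asrij high. Over all 16 alternatives it lay between -3.75 and -3.07 and passed the threshold in each.

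H19 (chromosome 7, 142575530 to 142578146), a maternally expressed noncoding RNA that shares enhancers with Igf2, had few counts. It had 0, 32 and 16 counts in Asrij high replicates 1 to 3 (0, 0.503 and 0.243 CPM) and 18, 34 and 14 counts in Asrij low replicates 1 to 3 (0.333, 1.18 and 0.541 CPM). The groups overlapped. A count of 0 in Asrij high replicate 1 allows up to 3 counts, or 0.0551 CPM. The log2 fold change of -1.44 ± 1.32 did not pass the test (adjusted p = 0.418, edgeR), with a 95% interval from -4.40 to 1.52, so a difference was not detectable in these libraries. It was at -0.90 without Asrij high replicate 1, -2.41 without Asrij high replicate 2 and -0.76 without Asrij low replicate 2, and did not pass in any alternative.

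In the Dlk1-Meg3 region of chromosome 12, 3 of the 4 members (Meg3, Rian and Dlk1) could be tested, and Meg3 passed. Meg3 (109540996 to 109571729, also called Gtl2) is a maternally expressed long noncoding RNA. Its level was 0.441, 1.92 and 1.23 CPM in Asrij high replicates 1 to 3, from 24, 122 and 81 counts, against 14.3, 5.26 and 12 CPM in Asrij low replicates 1 to 3, from 771, 152 and 312 counts. The groups did not overlap, and the spread within each was wide. Meg3 was 8.78-fold lower in Asrij high (log2 -3.13 ± 0.59, adjusted p = 0.00336, edgeR), and from -3.61 to -2.81 over the 16 alternatives, past the threshold in each.

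Rian (109603945 to 109661716), a maternally expressed RNA downstream of Meg3 that hosts small nucleolar RNAs, had 0.0918, 0.628 and 0.440 CPM in Asrij high replicates 1 to 3 and 2.09, 0.346 and 3.55 CPM in Asrij low replicates 1 to 3. Asrij low replicate 2, with 10 counts, lay within the Asrij high range, and the other Asrij low libraries lay above it. The log2 fold change was -2.35 ± 0.97 (adjusted p = 0.0805, edgeR). It passed the threshold in DESeq2 (-2.45, adjusted p = 0.0258) and without Asrij low replicate 2 (-2.82, adjusted p = 0.0268), and was at -1.71 without Asrij low replicate 3, with adjusted p from 0.0258 to 0.231 over alternatives. Counts of Rian per count of Meg3 were 0.208, 0.328 and 0.358 in Asrij high replicates 1 to 3 and 0.147, 0.0658 and 0.295 in Asrij low replicates 1 to 3, in overlapping ranges.

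Mirg (109734981 to 109749458), the host RNA of a large microRNA cluster at the far end of the same region, had 2 counts in Asrij high replicate 2 and 48 counts in Asrij low replicate 1. It had 0 in the other 4 libraries. It did not pass the filter and was not tested, and its level rests on a single library.

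Dlk1 (109452485 to 109463336), the paternally expressed gene of the region, encodes a transmembrane relative of Notch ligands. It had 0.110, 0.722 and 0.425 CPM in Asrij high replicates 1 to 3 against 2.33, 1.04 and 0.618 CPM in Asrij low replicates 1 to 3. The groups overlapped, since Asrij high replicate 2 lay above Asrij low replicate 3. The log2 fold change was -1.66 ± 0.90 with a 95% interval from -3.68 to 0.35, which did not pass the test (adjusted p = 0.169, edgeR). It was at -0.94 when replicate 1 of Asrij low was omitted and at -2.27 when replicate 2 of Asrij high was, with adjusted p from 0.0754 to 0.500 over alternatives. Counts of Dlk1 per count of Meg3 were 0.250, 0.377 and 0.346 in Asrij high replicates 1 to 3 and 0.163, 0.197 and 0.0513 in Asrij low replicates 1 to 3. These ranges did not overlap, but the nearest values, 0.250 and 0.197, rest on 6 and 30 counts of Dlk1. That gap is small beside the counting error, and the ratio was not tested.

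Neighbours of the region changed in the same direction where they could be tested. Begain, whose middle lies at -490.8 kb from the Meg3 start, had 0.514, 1.10 and 0.652 CPM in Asrij high replicates 1 to 3 against 3.11, 3.53 and 2.70 CPM in Asrij low replicates 1 to 3 (log2 -2.04 ± 0.52, adjusted p = 0.0125, edgeR). Begain no longer passed when replicate 1 or 3 of Asrij high was left out (adjusted p = 0.0556 and 0.0569, range over alternatives 0.000288 to 0.0569). The retrotransposon-derived gene Rtl1 was at -2.99 ± 0.66 (adjusted p = 0.00653), and at -3.70 when replicate 2 of Asrij high and replicate 3 of Asrij low were omitted together. The annotated span of Rtl1 (109564900 to 109604418) overlaps the end of Meg3 and the start of Rian. The strand setting of the counting is not given in the sources used here, so reads of Rtl1 and of these members cannot be told apart there. Dio3, the deiodinase gene at the other end, had 0 counts in all 6 libraries.

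Ndn (chromosome 7, 62348277 to 62349928), a paternally expressed gene, encodes necdin, a MAGE family protein known to restrain the cell cycle. Its level was 0.588, 2.86 and 0.789 CPM in Asrij high replicates 1 to 3, from 32, 182 and 52 counts, against 11.5, 7.79 and 3.90 CPM in Asrij low replicates 1 to 3, from 623, 225 and 101 counts. The groups did not overlap, but Asrij high replicate 2 and Asrij low replicate 3 lay close to each other. Ndn was 5.48-fold lower in Asrij high (log2 -2.45 ± 0.67, adjusted p = 0.0170, edgeR). Ndn missed the threshold when replicate 1 of Asrij low was omitted (-2.01, adjusted p = 0.0748), and the difference grew to -3.45 when replicate 2 of Asrij high was omitted and to -3.83 when replicate 3 of Asrij low was omitted as well. The adjusted p lay between 0.000253 and 0.0748 across alternatives.

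Other genes of the Ndn region, the mouse counterpart of the Prader-Willi and Angelman region, were mostly lower as well. Of 7 tested, Ndn included, 5 were lower and 0 higher, where 17.7% of all genes tested were lower and 21.7% higher. Snrpn and Snurf, which share counts, stand as 2 of the 5. The noncoding RNA gene Snhg14 of this region, not among the 7, was at -0.24 ± 0.30 and did not pass (adjusted p = 0.554, edgeR). Mkrn3, a paternally expressed ubiquitin ligase gene 70.6 kb from the Ndn start, was at -2.49 ± 0.67 (adjusted p = 0.0156, edgeR). Omitting replicate 1 or 3 of Asrij high or replicate 1 of Asrij low left Mkrn3 short of the threshold (adjusted p = 0.0529, 0.0560 and 0.0552, and from 0.000472 to 0.0560 over all alternatives), and it was at -3.31 without Asrij high replicate 2. The splicing protein gene Snrpn and the overlapping Snurf, whose counts cannot be told apart, were at -2.95 ± 0.56 and -2.69 ± 0.58, and the phospholipid flippase gene Atp10a at -1.85 ± 0.37. Ube3a, the ubiquitin ligase gene that is imprinted in neurons, was at 0.54 ± 0.20 and did not pass the test (adjusted p = 0.0546). It passed as higher under 4 of 16 alternatives (adjusted p from 0.0128 to 0.279).

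**Figure D2:**
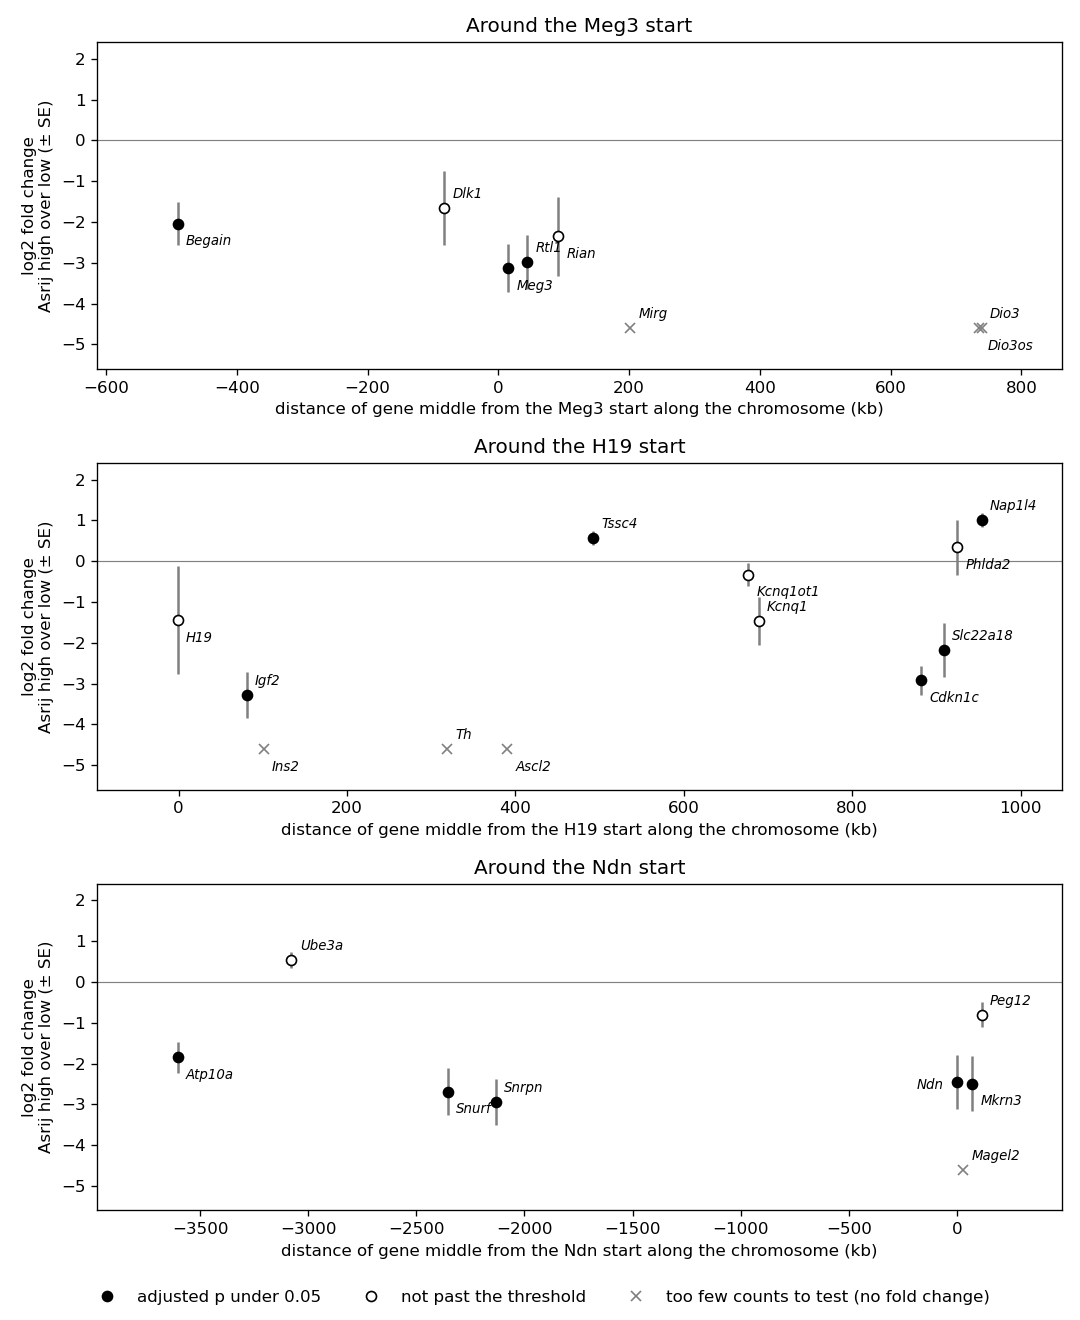
Log2 fold change (Asrij high over Asrij low, ± SE) of listed imprinted-region genes against the distance of each gene's middle from the start of Meg3, H19 and Ndn (kb), with filled points past the threshold, open points not past it, and crosses for genes with too few counts to test. The 5 genes tested around Meg3 all have negative values, whereas Nap1l4 (1.01) lies above 0 and Cdkn1c (-2.92) below it in the region of H19. Of the 9 genes tested around H19, 6 have negative values, and 3 passed as lower and 2 as higher.

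Peg3 (chromosome 7, 6703892 to 6730462), a paternally expressed gene for a large zinc finger protein, had 0, 0.534 and 0.273 CPM in Asrij high replicates 1 to 3, from 0, 34 and 18 counts, and 2.04, 1.11 and 2.55 CPM in Asrij low replicates 1 to 3, from 110, 32 and 66 counts. The groups did not overlap. The log2 fold change was -2.80 ± 1.13 and did not pass the test (adjusted p = 0.0765, edgeR). It passed with DESeq2 (adjusted p = 0.0164), limma-voom (0.0274), no count filter (0.0396) and counts divided by 2 (0.0427), and the adjusted p over alternatives ran from 0.0164 to 0.158. The fold itself was at -3.90 in limma-voom and -3.71 when replicate 2 of Asrij high was omitted, and the smallest was -2.29, when replicate 1 of Asrij high was.

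Plagl1 (chromosome 10, 13090832 to 13131694), also called Zac1, is a paternally expressed zinc finger gene whose protein regulates other imprinted genes. It had 0.294, 0.424 and 0.197 CPM in Asrij high replicates 1 to 3 and 0.333, 0.208 and 0.541 CPM in Asrij low replicates 1 to 3. The ranges overlapped almost fully. Its log2 fold change of -0.23 ± 0.99 had a 95% interval from -2.45 to 1.98 (adjusted p = 0.870, edgeR), so a several-fold change in either direction was not detectable in these libraries.

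Grb10 (chromosome 11, 11930499 to 12037428) encodes an adaptor that binds insulin and IGF receptors and restrains their signal, and is expressed from the maternal copy in most tissues. It had 65.4, 50.2 and 74.0 CPM in Asrij high replicates 1 to 3 and 57.8, 56.5 and 52.8 CPM in Asrij low replicates 1 to 3. The groups overlapped, with Asrij high replicate 2 the lowest library of all and replicates 1 and 3 the highest. The log2 fold change was 0.18 ± 0.18 with a 95% interval from -0.23 to 0.59 (adjusted p = 0.458, edgeR), and -0.10 and -0.09 with library totals and upper quartile factors.

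Per kilobase of annotated exon (GENCODE M21, all exons of the gene joined), Grb10 stood highest. The annotation used for counting is not stated, so these exons need not be the ones counted. For Ndn the joined exons (3694 bases) exceed the RefSeq span given above, so its value per kb would be higher over that span. Grb10 had 6.95 ± 1.33 CPM per kb in Asrij high and 6.13 ± 0.285 CPM per kb in Asrij low (SD, n = 3 each). Ndn followed, at 0.382 ± 0.340 CPM per kb in Asrij high and 2.09 ± 1.03 CPM per kb in Asrij low. In Asrij low, Igf2 (0.630 ± 0.163 CPM per kb) and Meg3 (0.582 ± 0.260 CPM per kb) came next and lay within each other's spread. The other 6 had means of 0.278 CPM per kb or less in Asrij low, and in Asrij high all members but Grb10 and Ndn had means of 0.101 CPM per kb or less.

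The members also differed among the Asrij high libraries. Of the 10 genes, 9 had their highest Asrij high level in replicate 2, all except Grb10, which was lowest there. Among all genes tested 41.2% were highest in that library. The summed LT-HSC markers were also highest in Asrij high replicate 2, at 1640 CPM against 777 and 852 CPM in replicates 1 and 3. So were the sums of megakaryocyte (751 CPM against 241 and 199), endothelial (452 against 209 and 222) and stromal markers (82.2 against 32.7 and 52.1). Most of that stromal sum came from Pdgfrb (38.1 CPM against 4.50 and 6.39) and Col1a2 (26.1 against 7.64 and 8.75). By contrast, Cxcl12 was highest in replicate 3, and Lepr and Igfbp5 were lowest in replicate 2. The B and plasma cell and the T and NK cell sums were highest there too. The erythroid (5180 CPM), myeloid (4380 CPM) and cell cycle sums (3550 CPM) were lowest there. The part of these cells in the pattern was not tested. Among the Asrij low libraries the highest level fell on replicate 1 for 5 genes, on replicate 3 for 3 genes (Rian, Peg3 and Plagl1) and on replicate 2 for H19 and Igf2.

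Markers of other cells moved with the groups. Of 20 stromal markers (Cxcl12, Lepr, Pdgfra, collagens and others), 18 were tested and 15 were lower in Asrij high, and their summed level was 32.7, 82.2 and 52.1 CPM in Asrij high replicates 1 to 3 against 406, 296 and 1170 CPM in Asrij low replicates 1 to 3. Of all genes tested, 17.7% were lower. Every one of the 20 stromal markers had counts in at least 1 library of each group. Col3a1 and Lum had no count in at least 1 Asrij high library, and Lum, Bglap and Sp7 in at least 1 Asrij low library. Igf2, Meg3, Ndn, Dlk1 and H19 were not highest in Asrij low replicate 3, where the stromal sum was highest, whereas Rian, Peg3 and Plagl1 were. Meg3, Rian, Peg3 and Plagl1 were lowest in Asrij low replicate 2, where the stromal sum was lowest. Meg3 had 5.26 CPM there against 14.3 and 12 CPM in replicates 1 and 3. Igf2, Dlk1, Ndn and Grb10 were lowest in Asrij low replicate 3, and H19 in replicate 1. Without Asrij low replicate 3, Igf2 was at -3.50, Meg3 at -3.07 and Ndn at -2.81 on the log2 scale, all past the threshold. The part of the remaining stromal signal, 296 to 406 CPM in the other Asrij low libraries, was not tested.

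The 12 endothelial markers summed to 209, 452 and 222 CPM in Asrij high replicates 1 to 3 and 308, 345 and 482 CPM in Asrij low replicates 1 to 3, with 4 of 11 tested lower, 0 higher, and Sox17 at 0 in all Asrij high libraries. Vwf alone gave 142, 337 and 139 CPM of these sums in Asrij high and 119, 150 and 113 CPM in Asrij low. Cdh5 (14.7 CPM) and Stab2 (53.0 CPM) stood out in Asrij low replicate 3, with at most 1.32 and 4.88 CPM elsewhere. Emcn was not highest there (4.05 CPM against 3.85 and 4.99 CPM). The 12 erythroid markers summed to 5180 to 9000 CPM in Asrij high and 11200 to 81200 CPM in Asrij low, with 5 of 12 higher and 5 lower. The 12 cell cycle genes, all of them higher in Asrij high, summed to 3550 to 5410 CPM in Asrij high and 581 to 886 CPM in Asrij low. Of 12 myeloid markers 6 were higher and 1 lower. By log2 fold change the 6 were Ctsg (4.42 ± 0.60), Mpo (4.16 ± 0.69), Elane (4.15 ± 1.04), Ms4a3 (3.89 ± 0.34), Ly6c2 (2.32 ± 0.57) and Prtn3 (2.24 ± 0.41). The lower gene was Csf1r (-1.74 ± 0.54). Myeloid sums reached 4760, 4380 and 7290 CPM over Asrij high replicates 1 to 3, against 2400, 852 and 3500 CPM over Asrij low replicates 1 to 3. Of 10 B and plasma cell markers tested 7 were lower, of 6 T and NK cell markers tested 3 were lower, and of 8 megakaryocyte markers 0 passed. The part of these cells and states in the results on the members was not tested.

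**Figure D3:**
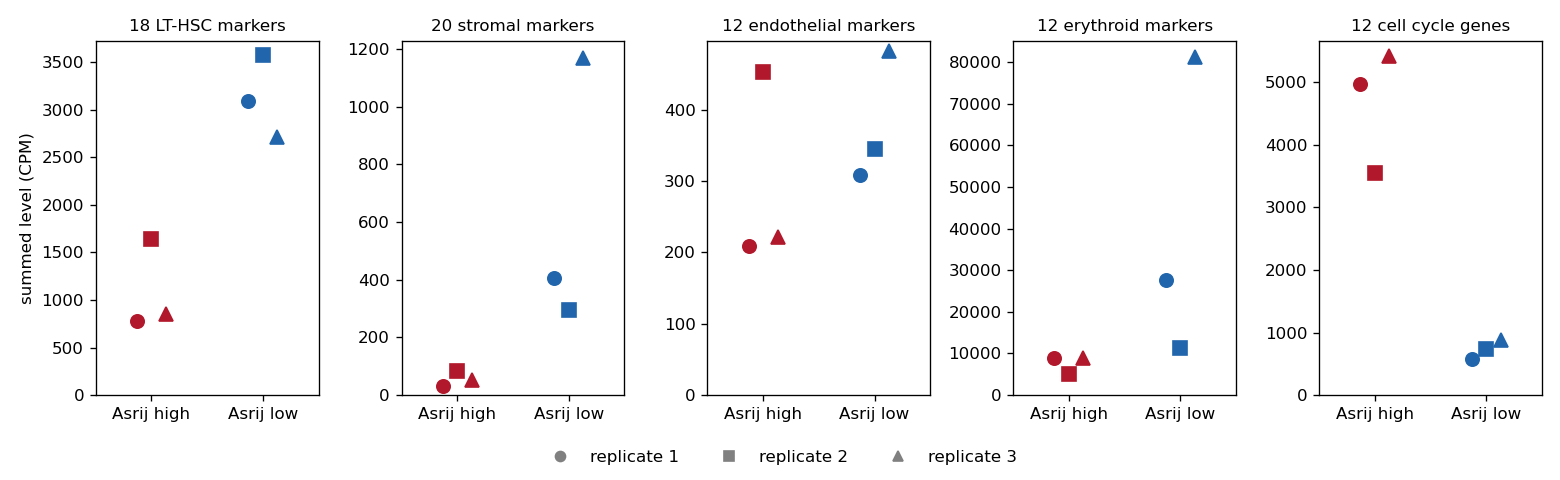
Summed levels (CPM, linear axes from 0) of marker lists in each library, Asrij high on the left and Asrij low on the right of each panel. LT-HSC and stromal sums lie lower in all Asrij high libraries, cell cycle sums lie higher there, and Asrij low replicate 3 has the highest stromal (1170), endothelial (482) and erythroid (81200) sums. The erythroid sums are mostly globin RNA, and 5 of the 12 erythroid markers are higher in Asrij high.

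Among 65 other imprinted genes in the table, 44 were tested, and 17 were lower and 5 higher in Asrij high, with a median log2 fold change of -0.70. Of all genes tested, 17.7% were lower and 21.7% higher. Cdkn1c, a maternally expressed cyclin-dependent kinase inhibitor gene in the region of H19 and Igf2, had 1.67, 3.25 and 1.71 CPM in Asrij high replicates 1 to 3 against 16.3, 16.0 and 18.1 CPM in Asrij low replicates 1 to 3 (log2 -2.92 ± 0.35, adjusted p = 0.000475, edgeR). The paternally expressed genes Sgce (-2.05 ± 0.43), Sfmbt2 (-2.18 ± 0.47) and Peg13 (-1.84 ± 0.31) were lower too. Dcn, which is also in the stromal list, was at -2.59 and did not pass the test. Counts of Peg13 and of the overlapping Trappc9 cannot be told apart without strand.

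The 5 that were higher were Igf2r, Ampd3, Nap1l4, Tssc4 and Gnasas1. Nap1l4 (1.01 ± 0.17) encodes a histone chaperone and Ampd3 (1.49 ± 0.25) an AMP deaminase. Tssc4 (0.56 ± 0.17, adjusted p = 0.0245, range over alternatives 0.0193 to 0.249) and Gnasas1 (1.54 ± 0.49, adjusted p = 0.0319, range 0.0113 to 0.242), named after their values were seen, lost their calls under several alternatives, library totals (adjusted p = 0.249 and 0.0668) and the omission of Asrij high replicate 3 (0.116 and 0.242) among them. Gnasas1 overlaps Gnas on the opposite strand. With library totals or upper quartile factors 3 were higher and 21 lower, and without Asrij high replicate 1 or 3 there were 3 higher and 9 or 10 lower.

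**Figure D4:**
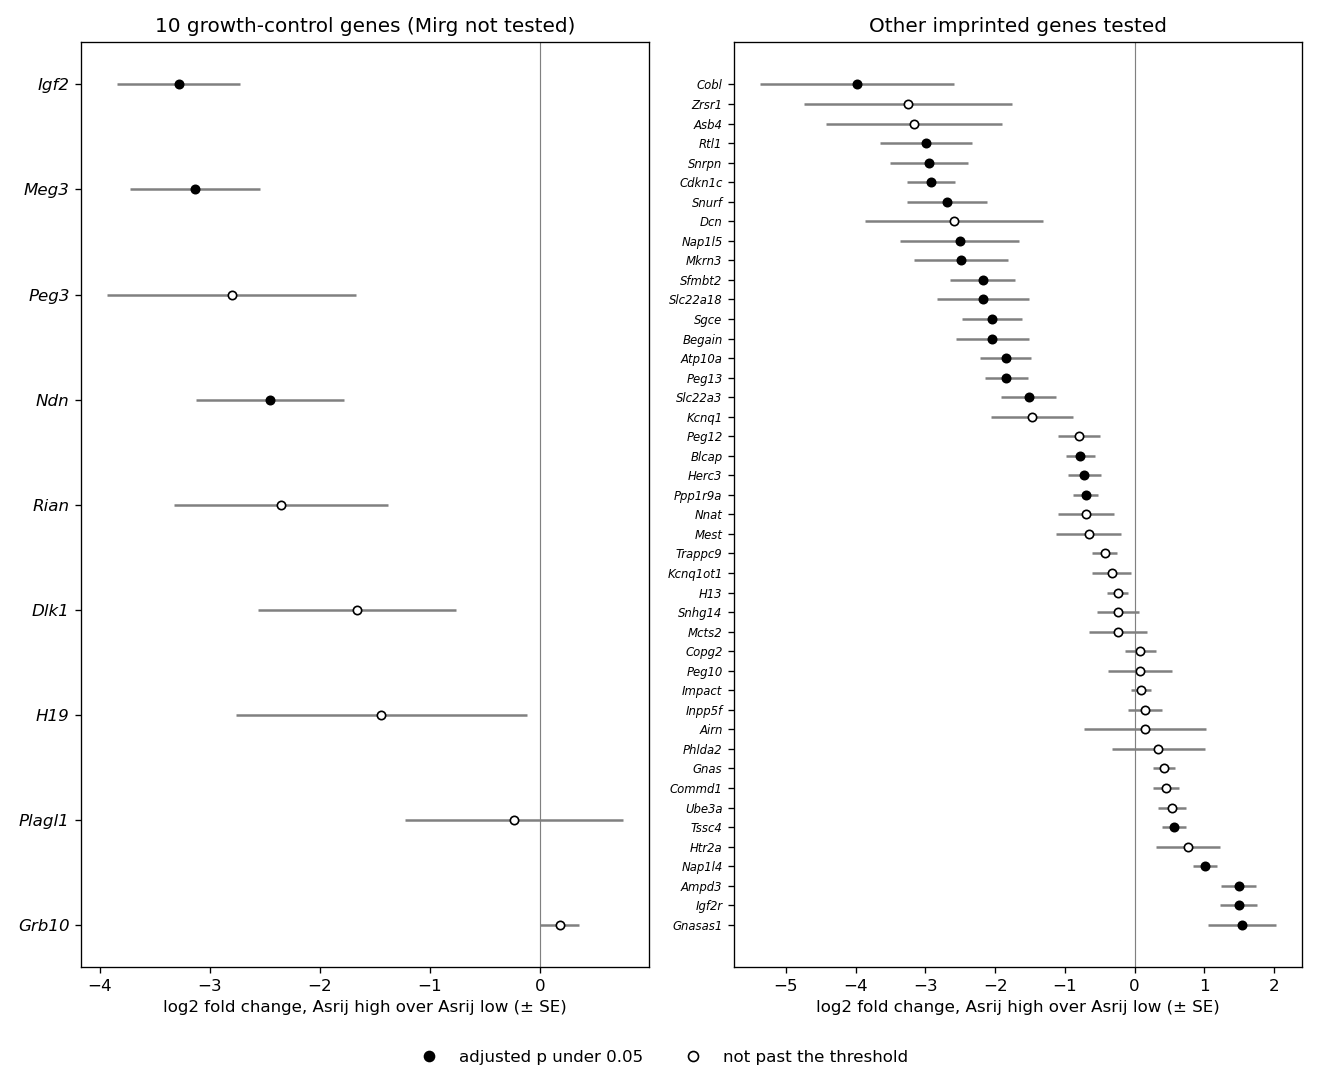
Log2 fold change (Asrij high over Asrij low, ± SE) of the 9 tested growth-control genes (left) and the 44 other imprinted genes tested (right), with filled points past the threshold. Igf2 (-3.28), Meg3 (-3.13) and Ndn (-2.45) are the filled points on the left, and Grb10 (0.18) is the 1 member above 0.

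Genes of the pathway in which Igf2 and Grb10 act moved in both directions, with the ligand gene Igf1 and the binding protein genes Igfbp3, Igfbp4, Igfbp5 and Igfbp7 lower and the receptor gene Igf2r higher. Of 29 listed genes of the insulin-like growth factor axis 21 were tested, 10 were lower and 2 higher, and the median was -0.87. Of all genes tested, 17.7% were lower and 21.7% higher. Igf2r, the maternally expressed receptor that takes IGF2 to lysosomes, had 147, 96.7 and 170 CPM in Asrij high replicates 1 to 3 and 47.1, 36.8 and 63.8 CPM in Asrij low replicates 1 to 3 (log2 1.49 ± 0.26, adjusted p = 0.00240, edgeR). The groups did not overlap. Counts of Igf2 per count of Igf2r were 0.00150 to 0.00504 in Asrij high and 0.0399 to 0.118 in Asrij low. That these ranges did not overlap follows from the levels of both genes and is no further result.

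The signalling receptor gene Igf1r, named after its values were seen, averaged 312 ± 60.8 CPM in Asrij high LT-HSCs and 569 ± 82.0 CPM in Asrij low LT-HSCs (SD, n = 3 each), and was lower by the test (log2 -0.87 ± 0.20, adjusted p = 0.00758, edgeR). The other ligand gene, Igf1, had 0.422, 0.314 and 0.698 CPM in Asrij high replicates 1 to 3 and 2.24, 7.24 and 9.27 CPM in Asrij low replicates 1 to 3 (log2 -3.69 ± 0.63). Its fold was smaller, at -3.06, when replicate 2 of Asrij high and replicate 3 of Asrij low were omitted together. The binding protein genes Igfbp3 and Igfbp5 were at -5.10 and -4.11, and at -3.77 and -2.68 without Asrij low replicate 3, in which they were highest.  Igfbp5, which is also in the stromal list, did not pass in limma-voom, without a filter, or with replicate 1 or 2 of Asrij high omitted (adjusted p = 0.0536, 0.0790, 0.122 and 0.0793, range over alternatives 7.85e-05 to 0.122). The insulin and IGF response factor gene Foxo1 was lower (-1.39 ± 0.27) and the adaptor gene Shc1 higher (0.94 ± 0.17).

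Of 25 listed genes that keep or read imprints 22 were tested, and 12 were higher and 2 lower in Asrij high (median 0.63). Among all genes tested 21.7% passed as higher and 17.7% as lower. The 8 not called included Trim28 (0.45 ± 0.17, adjusted p = 0.0590, edgeR) and Zfp445 (0.35 ± 0.17, adjusted p = 0.126, edgeR). All 12 cell cycle genes listed above were higher too, and the part of cell division in these values was not tested. The maintenance methyltransferase gene Dnmt1 had 894, 821 and 897 CPM in Asrij high replicates 1 to 3 and 307, 412 and 285 CPM in Asrij low replicates 1 to 3 (log2 1.38 ± 0.19, adjusted p = 0.000848, edgeR). Uhrf1, whose protein brings DNMT1 to replicated DNA, was at 2.16 ± 0.19, and the repressor gene Smchd1 at 1.39 ± 0.18. Zfp568, a zinc finger repressor known to silence a placental transcript of Igf2 in mouse, was at 1.29 ± 0.19. The cohesin gene Smc3 (1.59 ± 0.24) and the heterochromatin protein gene Cbx5 (1.72 ± 0.21) were higher too.

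The 2 that were lower, named after their values were seen, were Tet1, a demethylase gene (-1.36 ± 0.21, adjusted p = 0.00141, edgeR), and Dnmt3a, a gene for de novo methylation (-0.65 ± 0.19, adjusted p = 0.0217, edgeR). Dnmt3a fell short of the threshold when replicate 1 or 3 of Asrij high or replicate 2 of Asrij low was omitted (adjusted p = 0.0639, 0.0593 and 0.0617, range over alternatives 0.00302 to 0.0639). Zfp57, the zinc finger gene whose motif was searched above, had 0.294, 2.03 and 0.925 CPM in Asrij high replicates 1 to 3 and 3.04, 4.68 and 3.05 CPM in Asrij low replicates 1 to 3. Its log2 fold change of -1.72 ± 0.67 missed the threshold (adjusted p = 0.0675, edgeR) but passed it under 8 of 16 alternatives (adjusted p from 0.0194 to 0.157).

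The genes whose pattern over the 6 libraries was most like that of a member were found by the root mean square difference of log2 CPM, each centred on its own mean, among 12764 named genes of at least 1 CPM. For Igf2 the nearest was H2-Aa, an MHC class II gene (difference 0.16), for Meg3 Apol7b, Gabre and Entpd3 (0.21 to 0.22), and for Ndn Hnf4a (0.23). Rian and Peg3 had no gene nearer than 0.39 and 0.28. Grb10 was nearest to Kif3b and Mllt3 (0.06 each) and Numb (0.07). These are descriptions over 6 libraries that fall into 2 groups.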

How the data were processed

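RNA of sorted bone marrow LT-HSCs was sequenced in 6 libraries. Per the labels' protocols, ribosomal RNA was depleted and a directional kit was used, while the molecule field names polyA RNA. The deposited table holds whole-number counts per gene symbol, not normalized. HISAT2, Subread, SAMtools and FastQC and the mm10 build are named in the submitters' processing notes, per the labels. Versions, annotation, strand and multi-mapping settings are not stated in what was used here.

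Counts were tested in R 4.3.3 with edgeR 4.0.16 (quasi-likelihood, robust, TMM factors, group as the only term) on 21445 of 49997 genes kept by filterByExpr (minimum count 10, minimum total 15), at an adjusted p of 0.05. Limma 3.58.1 (voom) and DESeq2 1.42.0 were alternatives. Intervals are 95% and cover the fitted spread. Floors of 3 counts cover counting error only. Chi-square per degree of freedom between libraries of a group was 59.8 to 151, so none were merged.

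The members, lists and tests were chosen with earlier results of these data known. Named genes were the 10 members, Ociad1 and markers, then genes past the threshold of at least 1 CPM with the smallest p (12 other imprinted, 6 from each other list), and the 3 nearest by pattern. Tet1, Dnmt3a, Zfp57, Gnasas1, Tssc4, Slc22a18, Mkrn3, Ube3a, Phlda2, Igfbp4, Igfbp7 and Igf1r were added after their values were seen. So were Trim28, Zfp445, Snhg14, Vwf, Stab2, Emcn, Ctsg, Mpo, Elane, Ms4a3, Ly6c2, Prtn3 and Csf1r. Nespas was matched through RefSeq to Gnasas1, and Zfp264 matched no row. Coordinates are RefSeq's on GRCm38.p6, the assembly behind mm10.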

Additional observations from a re-analysis of the deposited data

How the results depend on the processing

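Igf2 and Meg3 were lower and past the threshold in all 16 alternatives. Of the 10 members, 3 were lower as reported, 5 in DESeq2, 4 in limma-voom, without a filter and with counts divided by 2 (added after seeing the data), and 2 to 4 when 1 library was left out. None was higher in any fit. Grb10 changed sign with library totals (-0.10) and upper quartile factors (-0.09), and Plagl1 without Asrij low replicate 3 (0.12, and from -0.51 to 0.12 when 1 library was left out), none of them past the threshold. Phlda2 ranged from -0.12 (without Asrij low replicate 3) to 1.15 when 1 library was left out. With Asrij high replicate 2 and Asrij low replicate 3 both left out, Phlda2 (-0.28), Pf4 (-0.15) and Cdh5 (0.12) changed sign. Leaving out 1 library gave 2346 to 3752 lower and 3135 to 5183 higher genes among all tested, against 3797 and 4655, and 9 to 16 lower and 3 to 6 higher other imprinted genes, against 17 and 5. Library totals and upper quartile factors gave 3 higher other imprinted genes, moved the median of all genes by -0.27 each, and made 40.2% and 39.9% of calls higher in place of 55.1%. Slc22a18 lost its call without Asrij high replicate 1 or 3 or Asrij low replicate 1 or 2. The causes were not tested. With the replicate number as a block 3 members were lower and 0 higher, and 14 other imprinted genes were lower and 4 higher. Deviations of same-numbered libraries correlated by 0.0126, 0.0460 and 0.225, so the numbers were not taken to pair the samples. H19, Plagl1 and Dlk1 had 6 to 46 counts in most libraries, so the depth gives them little precision, and they also varied between libraries of a group.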
